A study of Schizosaccharomyces pombe with 9 samples.

Results

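In fission yeast (Schizosaccharomyces pombe) cells that carry TetR-Mit1 together with clr4oe, 97 genes were higher than in TetR-Mit1 cells while differing little between TetR-Mit1-K587A cells and TetR-Mit1 cells. They were chosen from the 4818 genes, of 4915 in the count table, whose counts scaled to a common library total (CPM) averaged 5 or more, and make up 2.01% of the 4818. For each gene, dC was the log2 ratio of mean CPM in clr4oe over mean CPM in TetR-Mit1, and dK was the same ratio for K587A over TetR-Mit1, each minus its median over the 4818 genes. Members had a dC of at least 0.6 and an absolute dK under 0.25, and genes whose identifiers began with any of 17 listed prefixes were left out. Both contrasts therefore chose the members. For members, their values in these contrasts, and in clr4oe against K587A, which follows from them, are descriptions and carry no test.

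The clr4oe group (2 libraries) combines the TetR-Mit1 fusion with a modification that its genotype names clr4oe, whose construct the labels do not describe. The K587A group (3 libraries) carries TetR-Mit1 with the K587A substitution in Mit1, and the TetR-Mit1 group (3 libraries) carries the fusion alone, so all groups share the TetR fusion. Each genotype has a single strain number, so strain and genotype cannot be told apart, and the clr4oe library numbered 3 is not analysed here. Cells grew to log phase in rich YEA medium at 32 °C, and polyadenylated RNA was sequenced. Totals ran from 13838210 to 14401186 counts in clr4oe libraries, from 10367168 to 15920802 in K587A libraries and from 13086567 to 14181298 in TetR-Mit1 libraries. The Pearson correlation of log2 CPM was 0.997 to 0.998 over the 7 library pairs within groups and 0.938 to 0.980 over the 21 pairs between groups. Even within groups the libraries differed by more than sampling noise, with a chi-square per degree of freedom of at least 2.77. Nothing in the labels says that replicates came from separate cultures, so p-values measure the spread between these libraries only.

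Mit1, an ATP-driven chromatin remodeler, works in the silencing complex SHREC, and the Tet repressor (TetR) binds Tet operator DNA. Clr4 methylates lysine 9 of histone H3, the mark of heterochromatin. The members include enzymes of sterol, haem and sphingolipid synthesis. In this yeast the membrane-bound transcription factor Sre1, a relative of mammalian SREBP, is cleaved when sterols or oxygen run short, and its released part turns on genes of sterol and haem synthesis and its own gene. Several enzymes of these pathways consume molecular oxygen.

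The promoters below belong to hem13, sur2, erg31 and erg25, members of the sterol, haem and sphingolipid groups with log2 fold changes between 0.997 and 2.57, and to sre1, which lies just outside the rule. Hem13, sur2 and erg31 are shown as the members of these groups with the largest dC, and erg25 and sre1 because they hold a match to a sterol regulatory element core. Other members of these groups with a larger dC than erg25, among them erg1 and scs7, held no match and are not shown. Each has 250 bases before and 50 bases from the annotated gene start, 300 bases in all, on the strand of the gene, from RefSeq assembly ASM294v3. Capitals mark matches to the core, spelled TCANNCCA, on either strand. Hem13 lies on the forward strand of chromosome I, sur2 on the reverse strand of chromosome II, erg31 and erg25 on the reverse strand of chromosome I, and sre1 on the forward strand of chromosome II.
hem13: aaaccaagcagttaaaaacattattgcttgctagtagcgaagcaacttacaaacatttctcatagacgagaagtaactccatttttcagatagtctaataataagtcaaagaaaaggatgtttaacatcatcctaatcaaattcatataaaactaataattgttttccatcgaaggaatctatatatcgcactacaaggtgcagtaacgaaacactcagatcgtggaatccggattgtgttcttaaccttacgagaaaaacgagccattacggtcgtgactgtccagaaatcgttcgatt
sur2: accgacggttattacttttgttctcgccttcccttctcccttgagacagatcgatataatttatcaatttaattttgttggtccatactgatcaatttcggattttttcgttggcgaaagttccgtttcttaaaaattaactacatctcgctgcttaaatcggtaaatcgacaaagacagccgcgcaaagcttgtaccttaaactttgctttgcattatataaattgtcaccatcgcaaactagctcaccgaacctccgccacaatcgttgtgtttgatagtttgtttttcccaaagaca
erg31: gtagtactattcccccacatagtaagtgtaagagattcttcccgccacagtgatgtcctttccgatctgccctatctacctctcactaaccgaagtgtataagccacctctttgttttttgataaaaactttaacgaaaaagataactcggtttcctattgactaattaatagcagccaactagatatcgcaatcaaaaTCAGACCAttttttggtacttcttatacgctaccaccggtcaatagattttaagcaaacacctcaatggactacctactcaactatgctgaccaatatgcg
erg25: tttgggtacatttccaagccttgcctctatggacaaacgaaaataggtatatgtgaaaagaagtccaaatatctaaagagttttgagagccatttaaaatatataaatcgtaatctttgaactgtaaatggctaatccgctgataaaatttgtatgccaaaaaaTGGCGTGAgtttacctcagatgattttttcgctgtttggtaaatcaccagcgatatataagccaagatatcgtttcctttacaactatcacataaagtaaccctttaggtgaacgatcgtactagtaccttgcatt
sre1: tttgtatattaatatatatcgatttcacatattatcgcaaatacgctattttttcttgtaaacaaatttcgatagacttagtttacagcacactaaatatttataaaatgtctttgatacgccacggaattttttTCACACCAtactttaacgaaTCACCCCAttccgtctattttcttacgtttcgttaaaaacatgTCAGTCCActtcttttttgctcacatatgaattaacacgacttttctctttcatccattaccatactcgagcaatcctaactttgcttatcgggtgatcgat
Erg31 had 1 match, 51 bases before its start, and erg25 had 1, 86 bases before its start on the opposite strand. Sre1 had 3 matches, at 115, 95 and 52 bases before its start. Hem13 and sur2 had none in these windows, although they stood first and second among members other than the clr4 locus. Over all members, 13 of 97 promoters held the core (13.4%, exact 95% interval 7.33 to 21.8), against 9.42% of the promoters of the 4818 genes. Among the 10 sterol and haem members erg31 and erg25 were those with a match.

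The limits of the rule set the window of dC and dK that holds the members. Their median dC was 0.75 (range 0.60 to 2.57), and 20 had a dC of at least 1. Without the limit on dK, 223 of the 4818 genes had a dC of at least 0.6, before the prefixes were applied. Of 141 genes with a left-out prefix, gto1 (dC 0.77) and pan6 (dC 0.62) would have met the values of the rule. The medians subtracted were -0.06 for clr4oe and -0.14 for K587A.

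**Figure D1:**
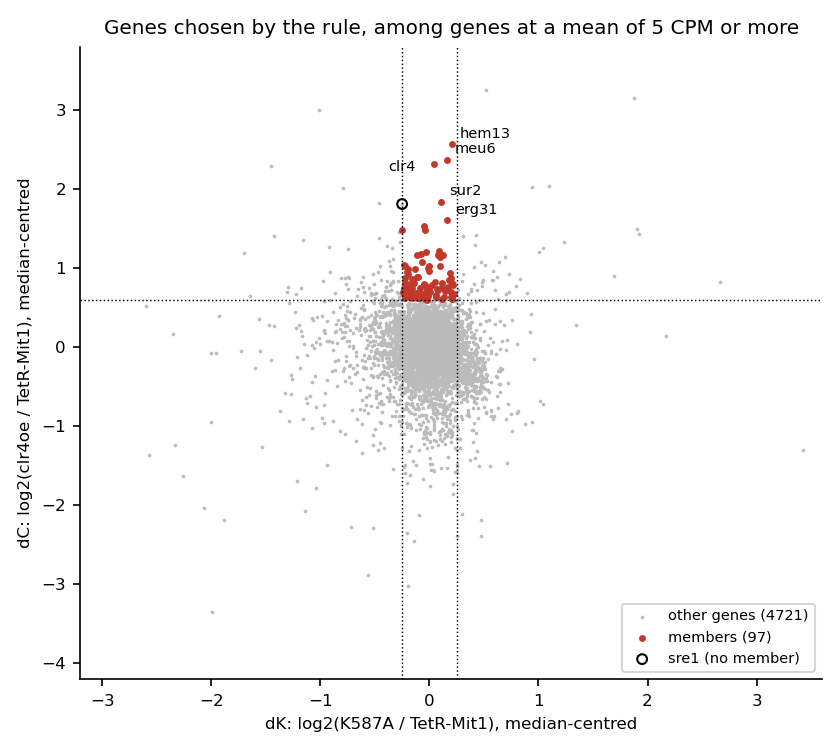
Each of the 4818 genes is plotted by dK (horizontal, log2 of K587A over TetR-Mit1) and dC (vertical, log2 of clr4oe over TetR-Mit1), both centred on their medians. Dotted lines mark the limits of the rule, red points are the 97 members, and the open circle is sre1, just left of the window at a dK of -0.25.

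The clr4 locus was examined first because the genotype label names clr4. The rule chose clr4 and meu6 on their clr4oe values, so these values are no check of the label. Clr4 (SPBC428.08c), on chromosome II, had 284 and 273 CPM in clr4oe libraries, 55.5, 60.4 and 58.4 CPM in K587A libraries and 53.7, 53.9 and 60.9 CPM in TetR-Mit1 libraries. CPM values here and below are normalised by the trimmed mean of M values (TMM). Means over all libraries are the exception and are scaled to the library total, as in the rule. Both clr4oe libraries stood far above the rest, and the K587A and TetR-Mit1 libraries overlapped. Meu6, annotated as a pleckstrin homology domain protein, had 184 and 171 CPM in clr4oe libraries, 36.8, 40.8 and 37.7 CPM in K587A libraries and 31.4, 32.4 and 39.1 CPM in TetR-Mit1 libraries. It showed the same arrangement, with no overlap between clr4oe and the other libraries. In RNA from whole cultures, more transcript per cell and more cells with the transcript cannot be told apart. The log2 fold changes of clr4oe over TetR-Mit1 were 2.31 ± 0.05 (SE) for clr4 and 2.37 ± 0.07 for meu6. All 2393 bases of the annotated meu6 gene lie within clr4, on the opposite strand, and the strand setting of the counting is not given, so their reads cannot be told apart.

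Hem13 was the member with the largest difference. It encodes coproporphyrinogen III oxidase, an oxygen-using enzyme of haem synthesis. Its level was 1705 and 1730 CPM in clr4oe libraries, 328, 343 and 332 CPM in K587A libraries and 287, 286 and 294 CPM in TetR-Mit1 libraries. The clr4oe libraries were far above both other groups, and the K587A libraries lay slightly above the TetR-Mit1 libraries without overlap. The fold over TetR-Mit1 was 5.94 in clr4oe (log2 2.57 ± 0.04 SE) and the log2 fold change in K587A was 0.21. Hem15, encoding ferrochelatase, which inserts iron to complete haem, had 72.6 and 67.6 CPM in clr4oe libraries, 37.7, 44.0 and 42.5 CPM in K587A libraries and 38.4, 41.5 and 41.9 CPM in TetR-Mit1 libraries. Its clr4oe libraries did not overlap the others (log2 0.79 ± 0.07 SE). Over the 8 genes of haem synthesis, a list chosen after values were seen, hem13 and hem15 were the members. The other log2 fold changes in clr4oe ran from -0.36 (hem3) to 0.53 (hem12).

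Sterol members covered several steps of ergosterol synthesis. Erg31, a sterol desaturase, had 604 and 618 CPM in clr4oe libraries, 218, 228 and 233 CPM in K587A libraries and 206, 194 and 203 CPM in TetR-Mit1 libraries. The 3 groups did not overlap, with clr4oe about 3.04 times TetR-Mit1 (log2 1.60 ± 0.04 SE). Erg1, the squalene monooxygenase that opens the oxygen-dependent part of the pathway, had 723 and 800 CPM in clr4oe libraries, 339, 308 and 304 CPM in K587A libraries and 330, 346 and 345 CPM in TetR-Mit1 libraries. Only the clr4oe libraries stood apart there (log2 1.16 ± 0.05 SE), and K587A and TetR-Mit1 overlapped. Erg25, the methylsterol oxidase, had 1291 and 1331 CPM in clr4oe libraries, 658, 631 and 673 CPM in K587A libraries and 659, 661 and 650 CPM in TetR-Mit1 libraries. Its K587A values spanned those of TetR-Mit1, and its clr4oe values were 1.996 times as high as those of TetR-Mit1 (log2 0.997 ± 0.04 SE).

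The remaining sterol members had smaller differences. Erg27, a keto-sterol reductase, had 124 and 134 CPM in clr4oe libraries, 89.2, 86.2 and 84.1 CPM in K587A libraries and 78.3, 78.2 and 72.9 CPM in TetR-Mit1 libraries. Erg11, the sterol demethylase that azole drugs inhibit, had 899 and 877 CPM in clr4oe libraries, 627, 635 and 642 CPM in K587A libraries and 574, 585 and 595 CPM in TetR-Mit1 libraries. In both genes the 3 groups did not overlap, with clr4oe highest and TetR-Mit1 lowest. The log2 fold changes in clr4oe were 0.76 for erg27 and 0.60 for erg11, which lay just inside the rule. Partners of these enzymes were also members. Dap1, which binds haem and assists cytochrome P450 enzymes such as Erg11, had 100 and 104 CPM in clr4oe libraries, 46.6, 50.6 and 44.2 CPM in K587A libraries and 55.1, 57.4 and 48.9 CPM in TetR-Mit1 libraries. The clr4oe libraries of dap1 were above all others (log2 0.93 ± 0.07 SE), while K587A and TetR-Mit1 libraries overlapped. Oca8, a cytochrome b5 (electron donor to lipid desaturases), and are2, which esterifies sterols, had log2 fold changes of 0.68 and 0.73.

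The fixed sterol and fatty acid synthesis list, which also holds the regulators, placed these members in their pathway. Of its 27 tested genes, 5 were members (18.5%): erg31, erg1, erg25, erg27 and erg11. Over all genes at the CPM minimum, 2.01% were members. In clr4oe against TetR-Mit1, 20 of the 27 were called higher, 1 lower and 6 neither (edgeR quasi-likelihood test, adjusted p under 0.05), where 32.1% of all 4887 tested genes were called higher and 33% lower. The 5 members had to differ by the rule. The list's median log2 fold change was 0.29 in clr4oe, against -0.0026 over all tested genes. In K587A against TetR-Mit1, 12 were called higher, 5 lower and 10 neither, with a median of 0.03 against 0.0058 over all tested genes. Over all tested genes 27.3% were called higher and 25% lower in K587A. Genes of the list outside the rule included erg2 (log2 0.54 in clr4oe) and erg6 (0.49). Erg32, a second sterol desaturase, had a log2 fold change of -0.62 in clr4oe and -1.09 in K587A, whereas erg31 had 1.60 and 0.17. Scp1, the sterol-sensing partner of Sre1, was at 0.02 in clr4oe, and the related factor sre2 was at -0.00.

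Sre1 missed the rule narrowly. Its level was 601 and 591 CPM in clr4oe libraries, 137, 145 and 149 CPM in K587A libraries and 173, 163 and 173 CPM in TetR-Mit1 libraries. The clr4oe libraries were highest and the K587A libraries lowest, without overlap. The log2 fold changes were 1.81 ± 0.04 (SE) in clr4oe and -0.25 ± 0.04 in K587A, and the dK of -0.2505 fell just past the limit of 0.25.

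**Figure D2:**
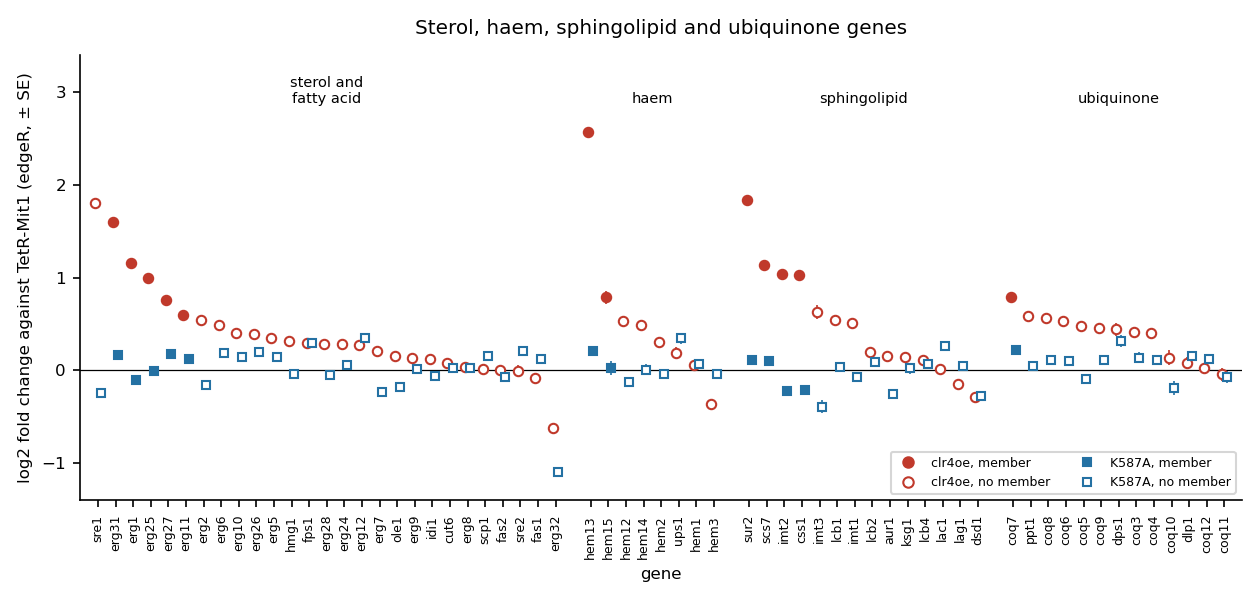
Log2 fold changes against TetR-Mit1 (± SE, edgeR) are plotted for each tested gene of the sterol and fatty acid, haem, sphingolipid and ubiquinone lists, with circles for clr4oe and squares for K587A and filled symbols for members. Hem13 at 2.57, sur2 at 1.84 and the non-member sre1 at 1.81 are the highest clr4oe values. The K587A squares of members, which the rule held near 0, lie between -0.22 and 0.23.

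Sphingolipid enzymes were also among the members. Sur2, a hydroxylase of the sphingoid base, had 1050 and 1085 CPM in clr4oe libraries, 326, 315 and 325 CPM in K587A libraries and 304, 284 and 306 CPM in TetR-Mit1 libraries. Scs7, which hydroxylates the fatty acid of ceramide, had 1032 and 1100 CPM in clr4oe libraries, 532, 517 and 512 CPM in K587A libraries and 487, 478 and 490 CPM in TetR-Mit1 libraries. In both, clr4oe was highest and TetR-Mit1 lowest without overlap, and clr4oe exceeded TetR-Mit1 by log2 1.84 ± 0.04 and 1.14 ± 0.04 (SE). Imt2, a mannosyltransferase acting on inositol phosphorylceramide, had 133 and 127 CPM in clr4oe libraries, 55.5, 53.2 and 53.4 CPM in K587A libraries and 65.7, 59.1 and 64.5 CPM in TetR-Mit1 libraries. Css1, a phospholipase that breaks down inositol phosphosphingolipids, had 225 and 243 CPM in clr4oe libraries, 98.7, 100 and 97.9 CPM in K587A libraries and 115, 116 and 113 CPM in TetR-Mit1 libraries. For these, K587A was lowest and clr4oe highest, again without overlap, so the direction in K587A differed among the sphingolipid members. The log2 fold changes of clr4oe were 1.04 for imt2 and 1.03 for css1. These 4 genes were 28.6% of 14 tested sphingolipid genes, where members were 2.01% of all genes at the CPM minimum. The sphingolipid list was chosen after values were seen, so nothing is read from its share. Its other genes ran from -0.28 to 0.63 in clr4oe. Imt3 was highest, lcb1, a subunit of the first enzyme of the pathway, was at 0.55, and the ceramide synthase lag1 (-0.15) and the desaturase dsd1 (-0.28) were below 0.

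Other lipid members spanned log2 fold changes from 0.61 to 1.03 in clr4oe. They were izh2 (1.03), a hemolysin III family protein, sac11 (0.96), an inositol polyphosphate phosphatase, and psd2 (0.72), which makes phosphatidylethanolamine. Lcf2 (0.70), a long-chain fatty acid ligase, csr101 (0.62), of the Sec14 family of lipid transfer proteins, and mgl1 (0.61), annotated as a serine hydrolase, completed the group.

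Enzymes that use molecular oxygen in lipid, haem and ubiquinone synthesis were listed after values had been seen. Of the 14, 8 were members (57.1%): hem13, sur2, erg31, erg1, scs7, erg25, coq7 and erg11. Over all genes at the CPM minimum 2.01% were members, but given how the list was chosen, nothing is read from its share. Coq7, a hydroxylase of ubiquinone synthesis, had 142 and 136 CPM in clr4oe libraries, 95.5, 93.8 and 92.5 CPM in K587A libraries and 81.0, 82.4 and 77.8 CPM in TetR-Mit1 libraries. The groups did not overlap (log2 0.79 ± 0.05 SE in clr4oe and 0.23 in K587A). The non-members were coq6 (log2 0.53), hem14 (0.49), erg5 (0.35), ole1 (0.15), dsd1 (-0.28) and erg32 (-0.62). The list was therefore not uniform: the desaturase genes dsd1 and erg32 lay below TetR-Mit1. In the ubiquinone list, coq7 was the member among 13 genes, with a list median of 0.45 in clr4oe and 0.11 in K587A.

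Peroxide enzymes among the members were tpx1 and bcp1, both thioredoxin peroxidases, with zta1, a quinone oxidoreductase (log2 0.63). Tpx1, the main peroxiredoxin of the cell, had 2723 and 2798 CPM in clr4oe libraries, 1258, 1099 and 1137 CPM in K587A libraries and 1222, 1226 and 1210 CPM in TetR-Mit1 libraries. Bcp1 had 196 and 195 CPM in clr4oe libraries, 67.4, 64.7 and 65.3 CPM in K587A libraries and 66.0, 66.2 and 71.0 CPM in TetR-Mit1 libraries. Both peroxidases were clearly higher in clr4oe, with K587A and TetR-Mit1 overlapping. Their log2 fold changes were 1.18 ± 0.04 for tpx1 and 1.53 ± 0.05 (SE) for bcp1. Tpx1 was the member in the fixed oxidative defence list. Of its 21 genes, 7 were called higher, 4 lower and 10 neither in clr4oe (edgeR), where 32.1% of all tested genes were called higher and 33% lower, and the list's median log2 was 0.03. In K587A 1 was called higher and 16 lower, with a median of -0.33, where 27.3% of all tested genes were called higher and 25% lower. Catalase (ctt1) was at 0.03 in clr4oe and -1.14 in K587A, and the sulfiredoxin srx1 at -0.26 and -1.58.

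Amino acid metabolism supplied 13 members, with a median log2 fold change of 0.78 (0.62 to 1.48). Mmf1, a mitochondrial matrix protein of the imine deaminase family, had 929 and 991 CPM in clr4oe libraries, 293, 286 and 292 CPM in K587A libraries and 355, 348 and 327 CPM in TetR-Mit1 libraries. Its K587A libraries were lowest, its clr4oe libraries highest, and its dK of -0.25 was the closest to the limit from inside. Maa1, an aspartate aminotransferase, had 643 and 659 CPM in clr4oe libraries, 281, 305 and 301 CPM in K587A libraries and 313, 306 and 307 CPM in TetR-Mit1 libraries. Put1, proline dehydrogenase, had 665 and 640 CPM in clr4oe libraries, 302, 302 and 305 CPM in K587A libraries and 328, 334 and 327 CPM in TetR-Mit1 libraries. Each was lowest in K587A, and only clr4oe stood well apart. Lysine synthesis gave lys12, homoisocitrate dehydrogenase (log2 0.79), and lys9, saccharopine dehydrogenase (0.65), and tryptophan synthesis gave trp2 (0.78). Lys9 had 1576 and 1547 CPM in clr4oe libraries, 993, 991 and 996 CPM in K587A libraries and 1005, 998 and 988 CPM in TetR-Mit1 libraries. Its K587A and TetR-Mit1 libraries overlapped within a few CPM. The others were the permease SPCPB1C11.02 (0.95), the aminotransferases SPBC1773.03c (0.81), ser1 (0.75) and alt1 (0.64), the pipecolate oxidase fap1 (0.75), the acetyltransferase aga1 (0.63) and pdx3 (0.62), an oxidase of vitamin B6 synthesis. Of the 52 tested genes of the fixed amino acid synthesis list, trp2, lys12 and lys9 were members. In clr4oe 32 of the 52 were called higher and 14 lower (edgeR), where 32.1% of all tested genes were called higher and 33% lower. In K587A 13 of the 52 were called higher and 28 lower, where 27.3% of all tested genes were called higher and 25% lower. The list's median log2 was 0.23 in clr4oe and -0.12 in K587A.

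Purine members differed in direction from the median of their list. Ade2, adenylosuccinate synthetase, had 935 and 899 CPM in clr4oe libraries, 440, 460 and 477 CPM in K587A libraries and 496, 496 and 496 CPM in TetR-Mit1 libraries. Ade7, another enzyme of purine synthesis, had 327 and 331 CPM in clr4oe libraries, 173, 160 and 167 CPM in K587A libraries and 180, 177 and 178 CPM in TetR-Mit1 libraries. Both had clr4oe above and K587A slightly below TetR-Mit1, without overlap, and log2 fold changes of 0.89 and 0.88 in clr4oe. The other 16 of the 18 genes in the purine and pyrimidine list were not members. Of the 18, 10 were called lower and 5 higher in clr4oe (edgeR), with a median of -0.17. Over all tested genes 33% were called lower and 32.1% higher in clr4oe. A pair of nucleotide enzymes outside the list, SPCC1020.07 (0.93), annotated as a pseudouridine phosphatase, and ndk1 (0.69), the nucleoside diphosphate kinase, were members too.

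Carbon metabolism and mitochondria contributed 12 members. Adh1, the fermentative alcohol dehydrogenase, was the most abundant per length, with 14274 and 14154 CPM in clr4oe libraries, 9574, 9211 and 9496 CPM in K587A libraries and 8482, 8393 and 8656 CPM in TetR-Mit1 libraries. Pgi1, glucose phosphate isomerase, had 2387 and 2387 CPM in clr4oe libraries, 1785, 1787 and 1753 CPM in K587A libraries and 1535, 1529 and 1546 CPM in TetR-Mit1 libraries. Both genes ranked clr4oe above K587A above TetR-Mit1 without overlap, with log2 fold changes in clr4oe of 0.74 and 0.64. Per kilobase of gene length the mean over all libraries was 6435 CPM for adh1, 2043 for tpx1 and 956 for pgi1, the highest among the members. In the fixed glycolysis and gluconeogenesis list 15 of 17 genes were called higher in clr4oe and none lower (edgeR), with a median log2 of 0.60. Over all tested genes 32.1% were called higher and 33% lower in clr4oe. In K587A 12 of the 17 were called higher and 3 lower, where 27.3% of all tested genes were called higher and 25% lower. The list's median in K587A was 0.38, and most of the list therefore lay outside the dK limit. Pgk1, for example, was at 1.08 in clr4oe and 0.65 in K587A.

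Osm1, annotated as fumarate reductase, had 304 and 310 CPM in clr4oe libraries, 129, 128 and 138 CPM in K587A libraries and 136, 132 and 132 CPM in TetR-Mit1 libraries. Its clr4oe libraries were far above the rest, which overlapped (log2 1.20 ± 0.04 SE). Other members of the group were the respiratory factor rcf2 (0.85), the glyoxylate reductase gor2 (0.81), SPAC1687.21 (0.80), annotated as a fructose-2,6-bisphosphatase, and sam50 (0.75), which inserts proteins in the mitochondrial outer membrane. Dld1 (0.68) and pda1 (0.60) encode subunits of pyruvate dehydrogenase. The adjacent genes SPAC25B8.09 (0.87) and SPAC25B8.10 (0.69) are both annotated as trans-aconitate methyltransferases.

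Signalling and ion genes included osr2, annotated as a potassium channel subunit. It had 162 and 158 CPM in clr4oe libraries, 58.5, 56.2 and 53.2 CPM in K587A libraries and 58.7, 55.1 and 57.8 CPM in TetR-Mit1 libraries. Only clr4oe stood apart, at 2.80 times TetR-Mit1. Calcium signalling was represented by ncs1 (log2 0.74), prz1 (0.67), the transcription factor that calcineurin activates, cmk1 (0.66), a calmodulin-dependent kinase, and the calcium-binding protein SPAC1687.14c (0.62). The phosphatase regulator glc8 (0.76), the phosphatases dcr2 (0.74) and SPBC1271.03c (0.64), mob1 (0.71), a partner of the kinase Sid2 in cytokinesis, and asp1 (0.67), an inositol pyrophosphate kinase, were the others.

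The other 33 members had log2 fold changes from 0.61 to 1.22, with a median of 0.72. Wwm3 led them with 802 and 759 CPM in clr4oe libraries, 386, 347 and 343 CPM in K587A libraries and 341, 343 and 320 CPM in TetR-Mit1 libraries. SPAC222.17, an uncharacterised gene, had 50.03 and 60.3 CPM in clr4oe libraries, 25.6, 26.8 and 25.8 CPM in K587A libraries and 24.2, 26.0 and 23.3 CPM in TetR-Mit1 libraries. In both, clr4oe was above all other libraries and K587A overlapped TetR-Mit1. SPAC24H6.08, also uncharacterised, was at 1.17, the glucosidase psu2 at 1.03 and ecl2, of a gene family tied to lifespan in this yeast, at 0.99. RNA-related genes were ime4 (0.88), rsd1 (0.75), vip1 (0.70), SPAC25G10.01 (0.69), msa1 (0.69) and rnh203 (0.66), a subunit of ribonuclease H2. Pof1 (0.82), an F-box protein that controls the sulfur regulator Zip1, mms2 (0.72), a ubiquitin-conjugating enzyme variant of DNA repair, and SPBC800.12c (0.61) belong to the ubiquitin system. Pex11 (0.74) acts in peroxisome division, bxi1 (0.87) is a BAX inhibitor family protein, atg24 (0.62) acts in autophagy and get4 (0.66) in delivering tail-anchored proteins to membranes.

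The last 15 of them were csc1 (0.83), SPBC21B10.08c (0.81), SPBP8B7.26 (0.81), rec10 (0.79), SPCC61.05 (0.75), cao1 (0.72), mfs1 (0.71), nit1 (0.70), SPAC18G6.12c (0.69), SPBC4.06 (0.66), SPCC1235.01 (0.64), SPBC30D10.05c (0.64), SPCC4F11.03c (0.63), mug73 (0.63) and SPAC513.07 (0.63). Rec10 builds the meiotic chromosome axis and cao1 is a copper amine oxidase. Of the 87 genes named mug or meu that reached the CPM minimum, meu6 and mug73 were members (2.30%), near the 2.01% of all 4818 genes. Mug73 had the lowest mean CPM over all libraries among the members, 9.18, and the largest standard error, 0.16.

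**Figure D3:**
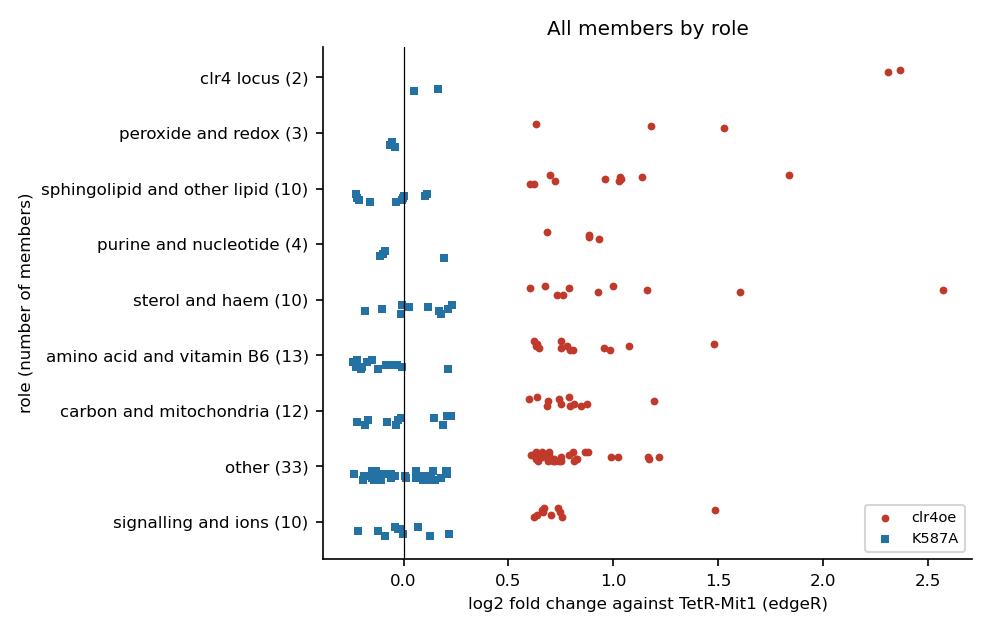
Each member's log2 fold change against TetR-Mit1 (edgeR) is plotted for clr4oe (circles) and K587A (squares), grouped by role with the number of members in brackets. In clr4oe the clr4 locus and hem13 lie above 2, and most members lie between 0.60 and 1.20. The rule held the K587A values near 0, from -0.24 to 0.23. Their medians by role ran from -0.15 (amino acid and vitamin B6) to 0.11 (clr4 locus).

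**Figure D4:**
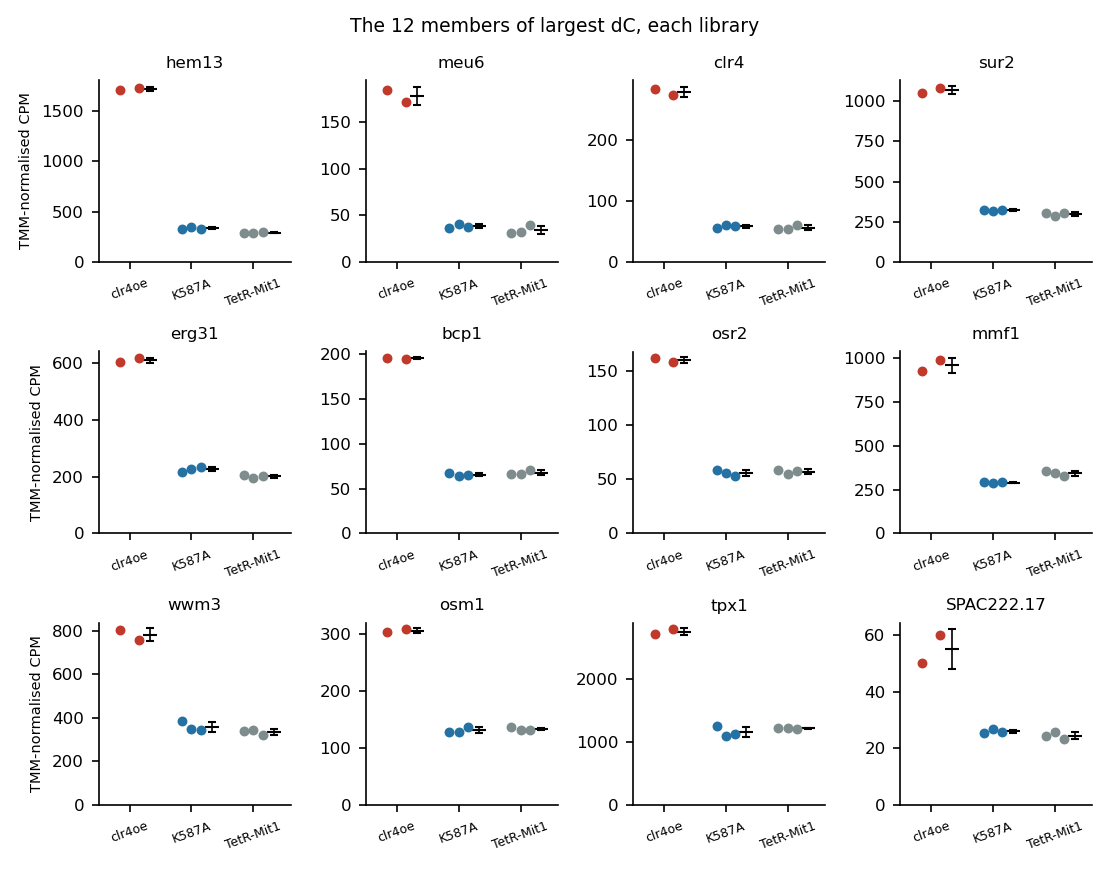
TMM-normalised CPM (vertical axis from 0) is plotted for each library of the 12 members of largest dC, with the mean ± SD beside the points (n = 2 for clr4oe and n = 3 for the other groups). In every panel the clr4oe points lie above all others, from 1705 and 1730 CPM in hem13 to 50.03 and 60.3 CPM in SPAC222.17.

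Clr4 was the member among the 21 tested genes of the fixed heterochromatin machinery list. Of these 21, 3 were called higher, 7 lower and 11 neither in clr4oe (edgeR), with a median log2 of 0.02, and in K587A 4, 3 and 14, with a median of 0.04. Over all tested genes 32.1% were called higher and 33% lower in clr4oe, and 27.3% higher and 25% lower in K587A. Pof1 was the member among 10 sulfur assimilation genes. No member fell in the lists for chaperones, Sty1-Atf1 stress genes, iron, phosphate, thiamine, copper and zinc, nitrogen and amino acid uptake, hexose transport, the tricarboxylic acid cycle, mating, septum and cell wall, cell cycle, core histones, folding in the endoplasmic reticulum, the proteasome, ribosome biogenesis or ribosomal proteins. Apart from the 131 ribosomal protein genes, these lists held 7 to 29 genes each at the CPM minimum. Members were 2.01% of the 4818 genes, so nothing is read from these absences. No mitochondrially encoded gene reached the CPM minimum, so none could be a member. The iron list had a median log2 of -0.44 in clr4oe, with 10 of 14 genes called lower and 1 higher (edgeR). In K587A its median was -0.17, with 9 called lower and 3 higher. Ribosome biogenesis had 28 of 29 called lower in clr4oe, with a median of -0.89. In K587A 15 of the 29 were called higher and 2 lower, with a median of 0.12. All 131 ribosomal protein genes were called higher in K587A (median 0.42) and 119 were called lower in clr4oe (median -0.35). Of the proteins that cleave, hold or degrade Sre1 and their partners, listed after values were seen, none of 13 was a member. In clr4oe 8 of the 13 were called higher and none lower (edgeR), with a median of 0.17. In K587A 5 were called higher and 5 lower, with a median of -0.03.

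Every member passed the low-count filter of the fit, and all 97 were called higher in clr4oe against TetR-Mit1, where 32.1% of all tested genes were called higher and 65.1% in either direction (edgeR quasi-likelihood test, adjusted p under 0.05). The rule used this contrast, so nothing is read from that count. All 97 were also called higher in clr4oe against K587A, where 35.4% of all tested genes were called higher, 36.4% lower and 71.7% in either direction. In all 97 both clr4oe libraries exceeded all 3 TetR-Mit1 libraries and all 3 K587A libraries, as did 36.9% and 38.9% of the 4818 genes for the separate comparisons. In K587A against TetR-Mit1, 21 members were called higher (27.3% of all tested genes), 28 lower (25% of all tested genes) and 48 neither, and 52.3% of all tested genes were called in either direction. The rule bounded this contrast too, and nothing is read from these counts. All 3 K587A libraries lay below the TetR-Mit1 libraries in 30 members (28.6% of the 4818 genes) and above them in 23 (30.5%). The median dK of members was -0.04, with 61 of 97 below 0 (62.9%), against 47.8% of the 3563 genes within the same dK limits. Both dK and dC entered the rule and share the TetR-Mit1 mean, so nothing is read from this share either.

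The spread within groups was not used by the rule, but the level was, and the genes compared here were not matched for level. The median coefficient of variation of members was 2.69% in clr4oe, 3.13% in K587A and 3.82% in TetR-Mit1, against 3.19%, 3.97% and 3.61% over the 4818 genes. When members were chosen without the first clr4oe library, 107 genes met the rule, and without the second 104 did. With any 1 of the 8 libraries removed, 71 of the 97 members stayed in each version.

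Gene length and overlap were not part of the rule. The left-out prefixes differ by chromosome, and the 4818 genes include the 141 that carry such a prefix. Of the members, 42 lay on chromosome I (43.3%), 34 on chromosome II (35.1%) and 21 on chromosome III (21.6%), against 45.0%, 36.9% and 18.1% of the 4818 genes. Their median gene length was 1633 bases against 1827 bases. The level in TetR-Mit1, which enters the rule, had a median of 56.3 CPM per kilobase in members and 44.0 over the 4818 genes, and ran from 8.24 to 8510 CPM in members, with a median of 102. In the annotation 33 members (34.0%) overlapped another gene, against 43.3% of the 4818 genes, and their counts are uncertain to that extent.

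Members lay beside each other in 8 pairs. A member was the next gene for 16 members (16.5%), against 3.66% of non-members. Meu6 lies on the opposite strand wholly within the annotated clr4 gene, and hem13 and SPAC222.17 converge and overlap by 9 bases. Transcribed away from each other were rsd1 with scs7 and tpx1 with bxi1. On the same strand lay SPAC25B8.09 with SPAC25B8.10, alt1 with pex11, bcp1 with SPBC1773.03c, and SPCC4F11.03c with imt2. The gaps of the 6 separate pairs ran from 181 to 1092 bases in ASM294v3. Without strand, reads of the overlapping partners cannot be told apart. The 173 non-members next to a member had a median dC of 0.08 against -0.01 for all non-members, and 24.3% of them had a dC of at least 0.3, against 15.6%. Of the 33 members that overlap another gene, 4 overlap a fellow member. Reads of the others and of the genes they overlap cannot be told apart either, and the cause of the difference was not tested.

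Promoter motifs were searched on both strands of the same 300-base windows of all 97 members and all 4818 genes. The CCAAT box (CCAAT) was found in 48.5% of member promoters and 42.3% of all, and the TATA box (TATAAA) in 44.3% and 48.4%. The heat shock element (GAANNTTC) was in 12.4% and 11.1%, the forkhead site (GTAAACA) in 13.4% and 16.6%, the Reb1 site (GGGTAA) in 9.28% and 10.2%, and the Prz1 element (AGCCTC) in 6.19% and 4.71%. The MBF box (ACGCGT) was in 5.15% and 3.22%, the Gcn4-type site (TGACTC) in 5.15% and 6.75%, the Cuf1 element (TTTGCTC) in 5.15% and 5.77%, and the CRE of Atf1-Pcr1 (TGACGT) in 4.12% and 5.79%. The HomolD box (CAGTCACA) was in 2.06% and 2.82%, and the Ste11 box (TTCTTTGTT) in 1.03% and 1.87%. No member promoter held the HomolE box, the Rst2 element (CCCCTC), the Pap1 site (TTACGTAA) or the Fep1 site, found in 1.33%, 2.16%, 0.457% and 1.41% of all promoters. The windows of neighbouring genes can overlap, and a match is a string of letters and not a bound site. The 13 member promoters with the sterol element core belonged to erg31, erg25, tpx1, rcf2, adh1, lcf2, mob1, csc1, SPBC21B10.08c, rec10, SPAC25G10.01, SPAC18G6.12c and msa1.

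Genes lay close on both sides of the dC limit and of the negative dK limit, but not of the CPM minimum. Just inside the dC limit lay pda1 (0.6025), erg11 (0.6054) and mgl1 (0.6070), and just outside it sst4 (0.5998), vps35 (0.5986) and csr103 (0.5962). At the dK limit mmf1 (-0.2492), SPAC25G10.01 (-0.2382) and ser1 (-0.2323) lay inside, and sre1 (-0.2505), gpd2 (-0.2529) and vht1 (-0.2561) outside. The members of lowest mean CPM over all libraries were mug73 (9.18), rec10 (13.1) and psu2 (16.04). The genes nearest below the minimum that met the other limits were mug9 (2.70), mug20 (2.36) and mei3 (1.18).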

How the data were processed

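The authors deposited a table of raw counts, 1 whole number per gene and library, under column names in the style of STAR gene counts, per the file headers. STAR, SAMtools, DESeq2 and the build ASM294v2 are named in the submitters' processing notes; their versions, the annotation and the strand setting are not given in the sources used here. Libraries were matched to genotypes through the library letter in each sample's description. The table has 8 libraries, and the clr4oe library numbered 3 was not analysed here. Symbols, gene order, lengths and promoters came from RefSeq assembly ASM294v3, in which 4906 of 4915 identifiers matched; no coordinates are given because the builds differ.

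The rule used CPM of the column sums. Differences across all genes were fitted with edgeR 4.0.16 in R 4.3.3 (TMM, filterByExpr, quasi-likelihood F test, all 8 libraries in a single fit with genotype as factor; 4887 genes tested). P-values were adjusted by Benjamini-Hochberg over all tested genes, with 0.05 as threshold. The standard error was the absolute log2 fold change over the square root of F. A floor of 3 counts corresponds to 0.188 to 0.289 CPM and covers counting error only, as do the exact binomial intervals. The biological coefficient of variation was 3.58%. Motifs were searched with Python 3.11.15, pandas 2.3.3 and scipy 1.17.1, and 1 motif of the search is not reported here.

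The members, gene lists and motifs were chosen with earlier results of these data known. The haem, sphingolipid, ubiquinone, Sre1 control and oxygen-using lists, the roles and the sterol element core were chosen after values had been seen. Genes were named by rule: clr4, the 12 members of largest dC, the 3 highest per length, members in a list, members beside another member and the 3 genes on each side of each limit; other members and non-members were named by role after their values were seen. Same-numbered libraries of different groups did not deviate together (correlations of -0.0959 to 0.0990 over 7 pairs, none above 0.1), so the fit has no replicate block. Alternatives were other scalings, DESeq2 1.42.0, other filters and limits, the replicate block and the removal of each library.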

Additional observations from a re-analysis of the deposited data

How the results depend on the processing

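The number of members depended on the limits. It was 170 with a dC of at least 0.5, 63 with at least 0.7, 20 with at least 1, and 58 (51 of them among the 97) when the medians were not subtracted. Without single libraries it ran from 97 to 107. The sterol list held 3 members without median subtraction and 2 at a dC of at least 1, and 5 to 6 without single libraries. The amino acid list held 0 at a dC of at least 1, 5 with an absolute dK under 0.3, and 3 to 5 without single libraries, with 5 when TetR-Mit1 replicate 1 was left out. Sre1 was a member in 3 of the 8 versions without a library. The median log2 fold change of the 12 leading members was 1.51, with 1.503 to 1.53 without single libraries. No member changed sign over 8 alternative fits, the largest move was 0.13 and the lowest value 0.52. The rule chose the members on this contrast in these libraries, so nothing is read from the lack of sign changes.

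Calls over all genes ran from 2795 to 3053 in clr4oe against TetR-Mit1 (3179 with all libraries), from 2269 to 2350 in K587A against TetR-Mit1 (2557) and from 3163 to 3404 in clr4oe against K587A (3505) without single libraries. With clr4oe reduced to 1 library its spread was assumed to be that of the other groups. With a replicate block the counts were 3119, 2573 and 3458, a pairing by number only. Among motifs, the CCAAT share was 36.1% of members in the 250 bases before the start, where it was 35.3% of all 4818 promoters. In the 20 members with a dC of at least 1, the CCAAT share was 60% and the TATA share 60%. The Ste11 share was 0% in the shorter window, against 1.47% of all promoters. The HomolD, Prz1 and Reb1 shares were 0% of those 20 members, against 2.82%, 4.71% and 10.2% of all promoters. The cause of these shifts was not tested.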
